A study of Mus musculus with 6 samples.

Results

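Hepatocytes that came along in a preparation of liver non-parenchymal cells (LNPCs) were taken from scRNA-Seq libraries of mice with nonalcoholic steatohepatitis (NASH). They were chosen by 3 measured values: a cell was counted as a hepatocyte when it had under 5000 genes detected, under 5% of its unique molecular identifiers (UMIs) from mitochondrial (mt-) genes, and at least 3% of its UMIs from Alb, Apoa1, Apoc3, Ttr and Fabp1 together. These are albumin, 2 apolipoproteins, transthyretin and the liver fatty acid binding protein. The rule took 511 of 27544 kept cells, or 1.86%, out of 33168 barcodes.

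Hepatocytes are the parenchymal cells of the liver and make most plasma proteins, lipoproteins, bile acids and glucose. Along the axis from the portal tract to the central vein they divide this work. Periportal cells carry out urea synthesis and gluconeogenesis, and pericentral cells make glutamine and hold much of the cytochrome P450 system. A preparation of LNPCs is meant to leave hepatocytes behind, so the cells described here are those that remained in it.

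The samples were 6 libraries of the 10x Genomics system, 3 of mice given vehicle and 3 of mice given ginkgetin. All were male C57BL/6J mice, bought at 8 weeks of age and kept on a high-fat diet for 24 weeks. Over the final 8 weeks the treated mice received ginkgetin, a biflavone of Ginkgo, by the intragastric route at a daily dose of 10 mg/kg, and the others DMSO as the vehicle. No mouse on a normal diet was part of the scRNA-Seq, and whether each library came from 1 mouse is not given in the sources used here.

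Replicates 1 and 2 of both groups drew their barcodes from another set than replicate 3. Libraries of replicates 1 and 2 shared up to 85 barcodes with each other, replicate 3 of both groups shared 10, and no pair across the sets shared more than 1. No barcode of a hepatocyte was shared. No label names a batch, but because of this difference values are also given for the barcode sets apart, of which the second holds 1 library of each group. Total counts were 13128697 to 61796882 UMIs per library.

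The label was checked with 20 hepatocyte genes that the rule did not use, among them Hpx (hemopexin), Trf (transferrin), Hnf4a (a transcription factor of hepatocyte identity) and Bhmt (an enzyme of methionine metabolism). The median hepatocyte had a UMI of 15, 14 and 15.5 of them in vehicle replicates 1, 2 and 3. In ginkgetin replicates 2 and 3 these medians were 16 and 12. The other kept cells of these 5 libraries had medians of 0 to 2. Markers of 9 other cell types together made up a median of 0.0320% to 0.191% of a hepatocyte's UMIs in these libraries, against 1.01% to 1.67% in the other cells. In 8 of the 511 cells they made up 1% or more. Of 516 cells with UMIs of the cholangiocyte genes Epcam and Krt19 or Krt7, 5 were also taken as hepatocytes. No doublet caller was run.

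In ginkgetin replicate 1 the label did not hold. Its single cell had 5667 UMIs, of which 172 were Alb and 24 were Ttr, but only 1 was Apoa1 and none were Apoc3 or Fabp1. It had UMIs of 7 of the 20 further hepatocyte genes. It also had 94 UMIs of Clu, 45 of Spp1 and 3 of Epcam, the latter pair from the list of cholangiocyte markers. This cell is counted where values are given for all 511 cells or all 6 libraries, and is left out of the zonation values and of the gene comparison, which rest on 345 vehicle and 165 ginkgetin hepatocytes.

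The share of hepatocytes differed more between libraries of 1 group than between the groups. In vehicle replicate 1, 47 of 6017 kept cells were hepatocytes, or 0.781%, with an exact binomial 95% interval of 0.574% to 1.04%. Vehicle replicate 2 held 106 of 3336, or 3.18% (2.61% to 3.83%). Vehicle replicate 3 held 192 of 4137, or 4.64% (4.02% to 5.33%). These 3 shares ran over a wide range with intervals that did not touch.

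The ginkgetin libraries ran over a wider one. Ginkgetin replicate 1 held 1 of 3493, or 0.0286% (0.000725% to 0.159%), and ginkgetin replicate 2 held 11 of 6918, or 0.159% (0.0794% to 0.284%). In ginkgetin replicate 3 there were 154 of 3643, or 4.23% (3.60% to 4.93%). The first pair lay below every vehicle library, whereas the interval of replicate 3 overlapped that of vehicle replicate 3. Intervals cover counting error only.

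The group means were 2.87% ± 1.95 (SD, n = 3) with vehicle and 1.47% ± 2.39 (SD, n = 3) with ginkgetin. The difference of -1.39 percentage points was smaller than the spread between replicates (two-sided exact permutation p = 0.5, where 3 against 3 cannot go below 0.1). Within the barcode sets, the difference was -1.89 points in replicates 1 and 2, and -0.414 points in replicate 3. With cells of 250 to 5000 UMIs, the filter of the study's methods, it was -2.21 points in replicates 1 and 2, whereas in replicate 3 the shares were 10.4% (124 of 1197 cells) with vehicle and 10.7% (142 of 1326 cells) with ginkgetin, a difference of 0.350 points. With the filter on genes, the difference of the group means was -2.77 without ginkgetin replicate 3, without vehicle replicate 3 it was -0.508, and without vehicle replicate 1, ginkgetin replicate 1 or ginkgetin replicate 2 it was -2.44, -0.673 and -0.739. A share of cells in such a preparation cannot tell fewer hepatocytes in the liver from fewer carried through the isolation.

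**Figure D1:**
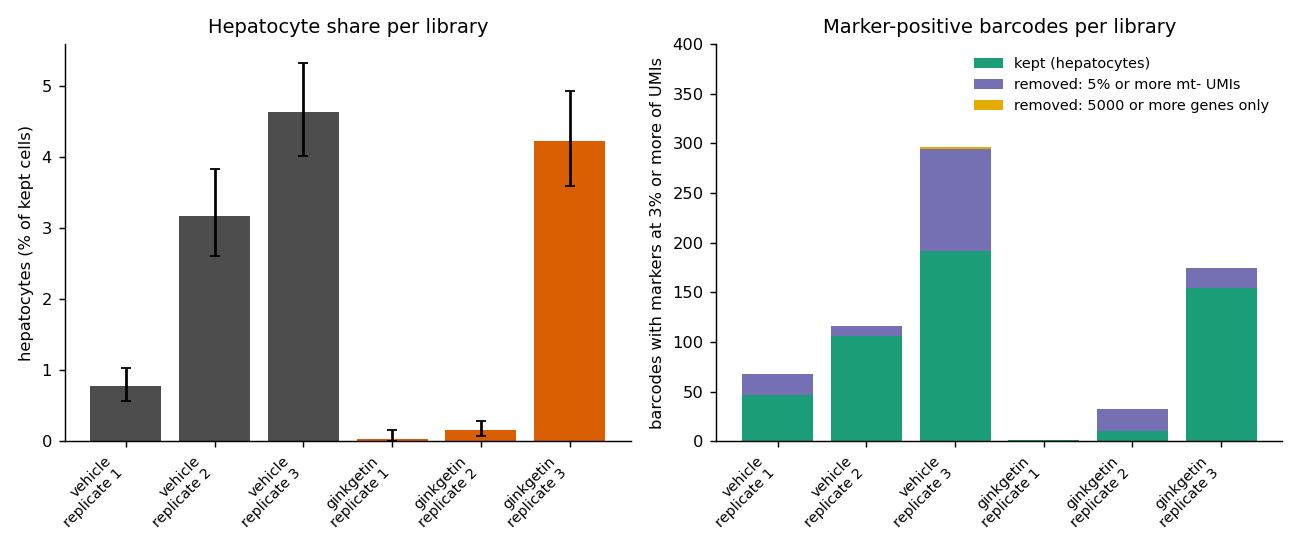
Left, hepatocytes as a percent of kept cells in each library (y axis from 0, bars are shares, error bars the exact binomial 95% intervals, vehicle grey and ginkgetin orange). Right, the number of barcodes with the 5 markers at 3% or more of UMIs, split into those kept and those removed by the 2 other parts of the rule. Ginkgetin replicates 1 and 2 hold 1 and 11 hepatocytes, and ginkgetin replicate 3 holds 154.

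The limit on mitochondrial UMIs took out many cells that carried the markers. Of 689 barcodes with the markers at 3% or more of UMIs, 176 had 5% or more mt- UMIs, and 178 were removed in all. Per library, 21 of 68, 10 of 116 and 102 of 296 such barcodes exceeded the limit in vehicle replicates 1, 2 and 3, which is 30.9%, 8.62% and 34.5%. In ginkgetin replicates 2 and 3 it was 22 of 33 and 21 of 175, or 66.7% and 12%. Ginkgetin replicate 1 had 1 such barcode in all.

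The mean shares over the limit, 24.7% ± 14.0 (SD, n = 3) and 39.3% ± 38.7 (SD, n = 2), did not differ beyond the spread (two-sided exact permutation p = 0.6, smallest possible 0.2), and without ginkgetin replicate 2 the difference turned from 14.7 to -12.7 points. The removed barcodes were not alike. In vehicle replicate 3 those over the limit had a median of 48698 UMIs, and 66 marker-positive barcodes there had 5000 or more genes. In ginkgetin replicate 3 the median was 1996 UMIs.

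Just inside and outside the marker threshold, 97 kept cells had 3% to 4% and 67 had 2% to 3% of their UMIs in the 5 genes. Vehicle replicate 3 and ginkgetin replicate 3 held 36 and 46 of the cells just inside. The lowest hepatocyte values in a library were 3.03% to 3.48% and the highest values of other kept cells 1.88% to 2.997%. The median hepatocyte had 6.54%, 6.60% and 5.25% of its UMIs in the 5 genes with vehicle (replicates 1, 2 and 3), and 6.79% and 4.44% with ginkgetin (replicates 2 and 3). The level reached 17.2% in a single cell.

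Among the markers, Fabp1 took 24505, 39117 and 27500.3 CPM (UMIs scaled to 1000000 UMIs per library) in the summed hepatocytes of vehicle replicates 1, 2 and 3, and 19362 and 24433 CPM in ginkgetin replicates 2 and 3. Alb took 21692, 12933 and 10239.5 CPM against 14934 and 14070. The level of Ttr was 14062, 11661 and 7708 CPM against 13991 and 3950. Apoa1 and Apoc3 lay between 2416 and 8803 CPM. These levels chose the cells and are given with no test. T cells (UMIs of Cd3e or Cd3d), which should lack the 5 genes, had 0.00559% to 0.0632% of their UMIs in them.

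A large part of the hepatocytes held little mitochondrial RNA and little Malat1, a nuclear non-coding RNA. Median mt- percentages of hepatocytes were 0.112%, 0.0475% and 0.329% with vehicle (replicates 1, 2 and 3), and 2.05% and 0.426% with ginkgetin (replicates 2 and 3). The other kept cells of the same libraries had medians of 2.35% to 3.80%. The hepatocyte median lay below that of the other cells in each library.

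Malat1 was at a median of 0% of UMIs in the hepatocytes of all 3 vehicle libraries and of ginkgetin replicate 3, and at 0.0626% in ginkgetin replicate 2. In the other cells it was at 1.24% to 1.92%. No Malat1 UMI was found in 31 of 47, 58 of 106 and 111 of 192 vehicle hepatocytes, nor in 3 of 11 and 104 of 154 ginkgetin hepatocytes. Among other kept cells of these libraries 0.101% to 1.72% had none.

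Taken over all libraries, 324 of 511 hepatocytes (63.4%) were below 0.5% for both kinds of RNA, against 66 of 27033 other kept cells (0.244%). Of those 66 cells, 37 had at least 1% of their UMIs in the 5 markers. Ribosomal protein genes also took a lower share, with medians of 7.10% to 11.9% in hepatocytes and 10.5% to 27.1% in other cells of the same libraries. Per library, 72.3%, 85.8% and 59.9% of vehicle hepatocytes and 18.2% and 53.2% of ginkgetin hepatocytes were below 0.5% for both. Median UMIs of hepatocytes were 3799, 3508 and 3293 with vehicle, and 2623 and 1433 with ginkgetin. The vehicle and ginkgetin libraries did not overlap in this share, in median UMIs or in median mt- percentage. Whether these barcodes were whole cells was not tested, nor was the part of these differences in the zonation and gene values of the groups.

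**Figure D2:**
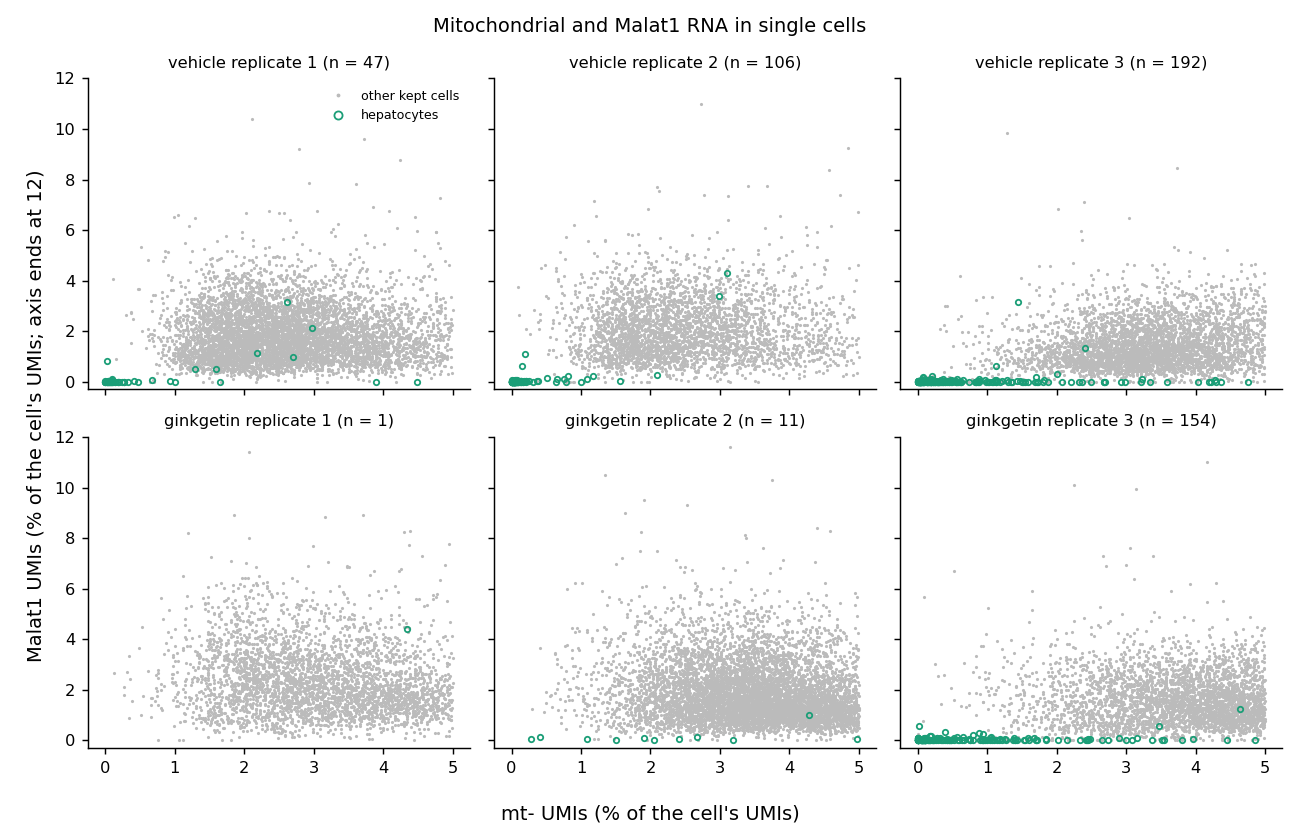
Each point is a kept cell, with mt- UMIs on the x axis and Malat1 UMIs on the y axis, both in percent of the cell's UMIs, 1 panel per library. Green circles are hepatocytes (n in the panel title) and grey points other kept cells. Most circles lie at the bottom, near no Malat1, and many of them at the lower left, whereas the single circle of ginkgetin replicate 1 lies among the grey points.

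Genes of both ends of the portal-central axis were found among the hepatocytes of each library. The pericentral end was least clear in vehicle replicate 1, as given below. Glul, glutamine synthetase and the classical gene of the cells around the central vein (chr1:153899944-153909723, plus strand), and Ass1, argininosuccinate synthase of the urea cycle in periportal cells (chr2:31470207-31520672, plus strand), were found together in fewer cells than the product of their shares. Cyp2e1, a pericentral cytochrome P450, lies at chr7:140763739-140774987 and Cyp2f2, a periportal one, at chr7:27119909-27133660, both on the plus strand. These positions are of the GENCODE annotation of GRCm38, a build named in the submitters' processing notes.

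In vehicle replicate 3, 68 of 192 hepatocytes had a Glul UMI, 158 had an Ass1 UMI and 41 had both. That is 21.4% of cells with both, where the product of the shares is 29.1%. In ginkgetin replicate 3, 65 of 154 cells had Glul, 94 had Ass1 and 9 had both, or 5.84% against a product of 25.8%. Vehicle replicates 1 and 2 had 12.8% and 16.04% with both, against products of 15.1% and 25.6%, and ginkgetin replicate 2 had 2 of 11 cells with both. The observed share was below the product in each of the 5 libraries, although 6 of 9, 17 of 33 and 41 of 68 Glul-positive vehicle hepatocytes also had an Ass1 UMI.

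Across the cells of a library, Spearman's rho between the Glul and Ass1 shares of UMIs was -0.308, -0.454 and -0.559 in vehicle replicates 1, 2 and 3 (n = 47, 106 and 192 cells). It was -0.478 and -0.792 in ginkgetin replicates 2 and 3 (n = 11 and 154 cells). Between Glul and Oat, ornithine aminotransferase of pericentral cells, it was 0.118, 0.530 and 0.597 with vehicle, and 0.693 and 0.833 with ginkgetin. These are descriptions of cells that share a library, and the depth of a cell correlated with its Glul share at -0.106 to 0.0347 and with its Ass1 share at -0.242 to 0.194.

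**Figure D3:**
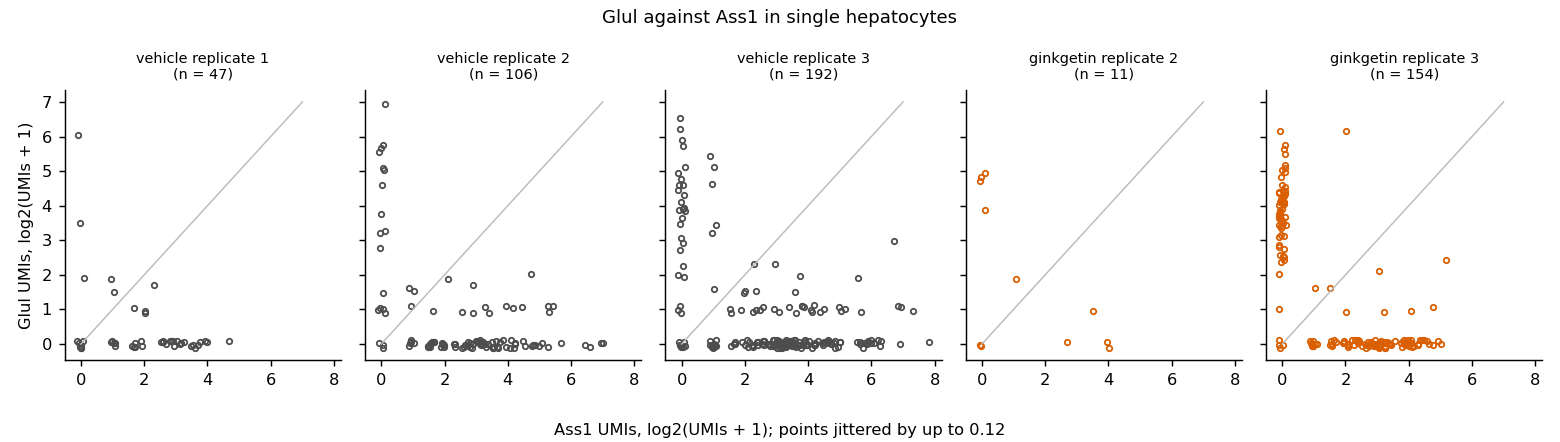
Each point is a hepatocyte, with Ass1 UMIs on the x axis and Glul UMIs on the y axis, both as log2(UMIs + 1) with a small random shift, and the line marks equal counts. There is 1 panel for each of the 5 libraries (vehicle grey, ginkgetin orange). Most cells lie along the 2 axes, and the cells with UMIs of both genes number 6 of 47, 17 of 106 and 41 of 192 with vehicle, and 2 of 11 and 9 of 154 with ginkgetin.

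To follow the other zonation genes, the hepatocytes of a library were divided into those with more Glul than Ass1 UMIs (the Glul side) and those with more Ass1 than Glul (the Ass1 side). This division, and the genes named from it, were chosen after the values had been seen. The Glul side held 5, 18 and 33 cells in vehicle replicates 1, 2 and 3 and the Ass1 side 35, 83 and 151. In ginkgetin replicates 2 and 3 the Glul side held 5 and 58 cells and the Ass1 side 4 and 91. Between 2 and 8 cells of a library were tied, and 2 to 26 lay within 1 UMI of a tie. Median depths on the Glul and Ass1 sides were alike in vehicle replicate 1 (3799 and 3794 UMIs). They were lower on the Glul side in the other 4 libraries, with 3209 and 3665 UMIs in vehicle replicate 2, 2074 and 3737 in vehicle replicate 3, 2687 and 2906 in ginkgetin replicate 2, and 1271 and 1709 in ginkgetin replicate 3.

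Genes of the periportal list other than Ass1 lay on the Ass1 side almost throughout. Counting those with 10 or more UMIs in the cells of both sides together, tied cells left out, 9 of 9, 9 of 10 and 11 of 12 had a higher CPM there in vehicle replicates 1, 2 and 3. In ginkgetin replicates 2 and 3, 3 of 3 and 11 of 11 did.

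Sds, a serine and threonine degrading enzyme, had 246 to 474 CPM on the Ass1 side and no UMI on the Glul side in each of the 5 libraries. Pck1, the gluconeogenic enzyme, had 307 to 1457 CPM on the Ass1 side and 118 CPM or less on the other. G6pc, glucose-6-phosphatase, was the exception. In the libraries where it reached 10 UMIs, vehicle replicates 2 and 3, it was at 26.3 and 45.3 CPM on the Glul side, from 2 and 5 UMIs, and at 25.8 and 35.5 on the Ass1 side.

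Of the pericentral genes other than Glul, counted in the same way, 10 of 11 and 13 of 13 were higher on the Glul side in vehicle replicates 2 and 3, and 8 of 8 and 16 of 16 in ginkgetin replicates 2 and 3. In vehicle replicate 1, whose Glul side had 5 cells, 2 of 6 were. One of these cells held 33.7% of that side's UMIs, with 3.15% Malat1, 141 Spp1 and 7 Epcam UMIs, and no Cyp2e1. A cell of vehicle replicate 2 was similar, with 15.8% of its side's UMIs, 3.39% Malat1, 274 Spp1 and 8 Epcam UMIs. Without the Glul-side cells of 1% Malat1 or more, 1 in each library but ginkgetin replicate 2, the counts were 3 of 6, 10 of 11 and 13 of 13 with vehicle, and 8 of 8 and 16 of 16 with ginkgetin. Cells of the Ass1 side were not left out in this way. Of that side's 18986 UMIs in ginkgetin replicate 2, 11669 were in 1 cell with 1.003% Malat1 and 4.285% mt- UMIs. Oat was at 211, 1855 and 3423 CPM on the Glul side of the vehicle libraries and at 35.4, 124 and 49.9 on the Ass1 side. In ginkgetin replicates 2 and 3 it was at 2451 and 4478 on the Glul side and at 263 and 299 on the Ass1 side. Rgn (regucalcin) was higher on the Glul side in all 5 libraries and was also found on the Ass1 side of 4 of them, at 837, 1420 and 1924 CPM with vehicle and 816 in ginkgetin replicate 3, with no UMI there in ginkgetin replicate 2.

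Hamp, which encodes the iron hormone hepcidin and stood in the list of midlobular genes, was all but absent from the Glul side. It was at 2654, 1980 and 1890 CPM on the Ass1 side of the vehicle libraries and at 0, 13.2 and 9.06 on the Glul side. In ginkgetin replicates 2 and 3 it was at 158 and 722 on the Ass1 side and had no UMI on the Glul side.

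**Figure D4:**
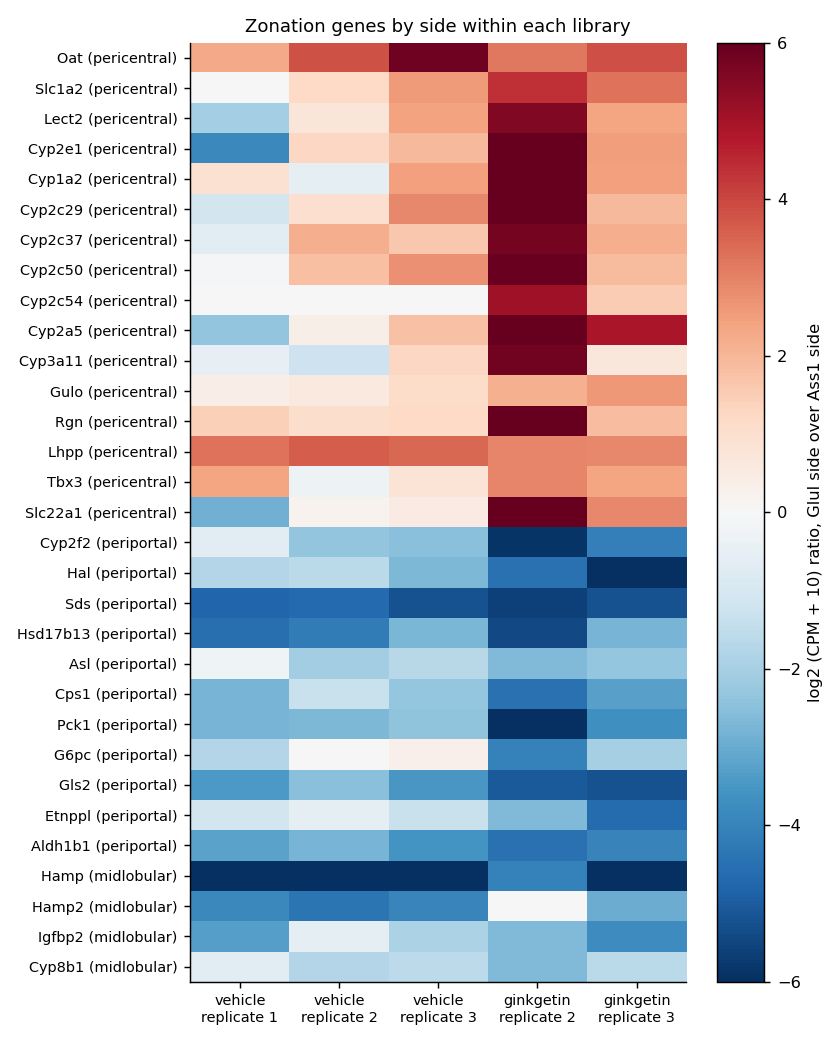
Rows are genes of the zonation lists, columns the 5 libraries, and colour the log2 ratio of CPM on the Glul side over the Ass1 side (10 CPM added to both, colours end at 6 and -6, red higher on the Glul side). Glul and Ass1 made the division and are left out, and not every list gene is drawn. Pericentral genes are mostly red outside vehicle replicate 1, whereas periportal and midlobular genes are mostly blue in all 5 libraries.

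The balance between both ends differed between the libraries of the groups. The Glul side was 10.6%, 17.0% and 17.2% of hepatocytes with vehicle (replicates 1, 2 and 3), and 45.5% and 37.7% with ginkgetin (replicates 2 and 3), the former from 11 cells. Of the UMIs of the pericentral and periportal lists together, the pericentral list took 44.7%, 46.1% and 44.4% in the vehicle libraries, and 75.1% and 60.7% in the ginkgetin libraries. The groups did not overlap in either measure.

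The pericentral list summed to 2299, 3700 and 4557 CPM with vehicle and to 12079 and 10421 with ginkgetin. The periportal list summed to 2843, 4333 and 5704 CPM against 4009 and 6736, which overlapped. The mean pericentral share was 45.1% ± 0.882 (SD, n = 3) with vehicle and 67.9% ± 10.1 (SD, n = 2) with ginkgetin, a difference of 22.9 points that was not tested, since the lists were chosen with results known.

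The difference depended on which cells were taken. Among cells of 250 to 5000 UMIs the shares were 50.6%, 56.2% and 53.2% with vehicle and 56.8% in ginkgetin replicate 3, a difference of 3.48 points, with ginkgetin replicate 2 left out for having under 10 cells. Without ginkgetin replicate 2 and with the cells as chosen the difference was 15.7 points. With no filter on cells they were 48.7%, 38.5% and 53.9% against 52.0% and 77.5%, which overlapped. With each cell given the same weight it was 11.1 points, and with Cyp2e1 against Cyp2f2 alone 10.7 points, with overlapping libraries. It was 29.7 points in replicates 1 and 2, and 16.3 points in replicate 3. With only cells under 1% other-cell UMIs the shares were 44.5%, 46.0% and 44.4% with vehicle. Those of ginkgetin replicates 2 and 3 were then 89.4% and 60.8%.

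At an even depth of 1000 UMIs per cell, which left out 7 cells of vehicle replicate 3 and 35 of ginkgetin replicate 3, Glul was detected in 12.8%, 16.04% and 21.1% of vehicle hepatocytes, and in 54.5% and 39.5% of ginkgetin hepatocytes. Without thinning these shares were 19.1%, 31.1% and 35.4% against 54.5% and 42.2%. In T cells thinned alike Glul was detected in 3.77% to 7.12%. Cyp2e1 was detected in 10.6%, 15.1% and 24.9% of thinned vehicle hepatocytes and in 54.5% and 47.9% of ginkgetin ones, with 0.130% to 1.03% in T cells.

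The unthinned shares for Cyp2e1 were 36.2%, 34.0% and 50.5% against 63.6% and 55.8%. Ass1 was detected in 57.4%, 64.2% and 73.0% of thinned vehicle hepatocytes against 27.3% and 58.8%, with 2.99% to 5.19% in T cells, and its unthinned shares were 78.7%, 82.1% and 82.3% against 45.5% and 61.0%. Vehicle and ginkgetin libraries did not overlap for Glul or Cyp2e1, and overlapped for Ass1 once thinned.

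Counts summed over the hepatocytes of a library were compared between the 3 vehicle and the 2 ginkgetin libraries, which asks whether the hepatocytes of treated mice differed in their RNA. The sums were 225793, 520215 and 1033154 UMIs with vehicle, and 38167 and 346046 with ginkgetin, so that 1 UMI is worth 26.2 CPM in ginkgetin replicate 2. Of 3706 genes tested by edgeR's quasi-likelihood test, 0 (0.0%) passed a Benjamini-Hochberg adjusted p of 0.05 with a fold over 2. The lowest adjusted p was 0.162. At an unadjusted p under 0.05 there were 484 genes (13.1%), of which 314 (8.47%) were higher and 170 (4.59%) lower with ginkgetin. The log2 fold change was above 0 for 48.8% and below 0 for 51.2% of the genes, with a median of -0.03. DESeq2 called 58 genes (1.57%) and limma-voom 0. On simulated counts of these 3706 genes, the same test recovered 20 of 100 genes changed by 4-fold and 84 of 100 changed by 16-fold. It also called 3 unchanged genes. The changed genes were drawn only from those above the median level, and 1 dispersion (0.254) served all genes. Recovery of genes at lower levels was therefore not simulated.

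With the barcode set as a term in the edgeR fit, 33 genes (0.89%) passed, 27 higher and 6 lower with ginkgetin, and with a replicate block 28 (0.756%) did. Among the 3706 genes, both ginkgetin libraries lay above all 3 vehicle libraries for 635 (17.1%) and below them for 707 (19.1%), 36.2% in all. Counts for gene lists are read against these shares. A gene could also pass the count filter through the group in which it was high, so list counts are descriptions of the genes tested.

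Markers of endothelial cells differed with the group in these sums. The 8 endothelial markers together were at 213, 36.5 and 59.0 CPM in the hepatocytes of vehicle replicates 1, 2 and 3, and at 1389 and 656 CPM in those of ginkgetin replicates 2 and 3. None of the 8 was at 0 in either ginkgetin library or in vehicle replicates 1 and 3, and Cdh5 alone was at 0 in vehicle replicate 2. In the other kept cells of these libraries they were at 1055 to 1173 CPM with vehicle, and at 6227 and 6695 with ginkgetin. Of the 6 tested, all lay above in both ginkgetin libraries, and 3 were among the 33 genes of the fit with the barcode set. Markers of B and plasma cells were at 26.6, 28.8 and 47.4 CPM with vehicle, and at 472 and 86.7 with ginkgetin. Macrophage markers were at 150 to 194 CPM against 157 and 104, and cholangiocyte markers at 4774, 878 and 54.2 against 3249 and 54.9. In ginkgetin replicate 2 the cholangiocyte value was 124 UMIs of Spp1 alone, with 6 of the 7 markers at 0. None of the 7 was at 0 in vehicle replicates 1 and 2. The part of these other cell types in the gene values below was not tested.

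Pericentral genes read higher in both ginkgetin libraries. Of 19 genes in the list 16 were tested, 0 passed the adjusted threshold, and 14 (87.5%) lay above all vehicle libraries, with a median log2 fold change of 2.69 against -0.03 for all genes. With the barcode set as a term, 7 of the 16 passed, and with a replicate block 3 did. Cyp2e1, which oxidises ethanol and fatty acids, was at 115, 171 and 248 CPM in vehicle replicates 1, 2 and 3, and at 1520 and 1826 CPM in ginkgetin replicates 2 and 3. Its log2 fold change was 3.19 (SE 0.38, edgeR adjusted p = 0.162), and 3.43 and 2.88 within replicates 1 and 2 and within replicate 3.

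Glul was at 385, 819 and 719 CPM with vehicle, and at 2699 and 2994 with ginkgetin (log2 fold change 2.11, SE 0.38, edgeR adjusted p = 0.258). Cyp3a11, a drug-metabolising cytochrome P450, was at 412, 238 and 461 CPM against 1834 and 1063. Oat was at 57.6, 381 and 411 CPM against 1284 and 1598. The vehicle libraries thus lay below both ginkgetin libraries for each of these 4 genes.

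Further cytochrome P450 genes of the list were low with vehicle. Cyp2c29 was at 13.3, 25.0 and 53.2 CPM against 629 and 269, Cyp1a2 at 17.7, 3.84 and 38.7 against 576 and 211, and Cyp2a5 at 35.4, 19.2 and 24.2 against 629 and 133. Cyp2c54 had no UMI in any vehicle hepatocyte and 6 and 25 UMIs with ginkgetin, which is at least 68.0-fold higher than the level of 3 counts over the vehicle group. The bound was 42.8-fold without ginkgetin replicate 2, and 28.5-fold without vehicle replicate 3. Genes of the Cyp2c and Cyp2a families have near-identical copies, and how the authors' counting split reads among them is not known. Rgn ran the other way, at 930, 1663 and 2213 CPM against 655 and 1485, with overlapping groups.

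On the Glul side alone, Cyp2e1 was at 0, 342 and 743 CPM in the vehicle libraries and at 3511 and 4233 in the ginkgetin libraries. Glul, which made the division, was at 3461, 5342 and 6231 CPM there against 6757 and 9603. On the Ass1 side, Cyp2e1 was at 136, 138 and 187 CPM with vehicle, and at 0 and 739 with ginkgetin. Without the Glul-side cells of 1% Malat1 or more, Cyp2e1 was at 0, 406 and 735 CPM against 3511 and 4087. The groups did not overlap on the Glul side and overlapped on the Ass1 side. The Glul and Ass1 sides of ginkgetin replicate 2 held 15095 and 18986 UMIs in all, and 1 cell of the Ass1 side held 11669 of them.

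Periportal genes lay above or overlapped. Of 13 genes 12 were tested, 0 passed, and 5 (41.7%) lay above all vehicle libraries and none below, with a median log2 fold change of 0.37. Hal, histidine ammonia-lyase, was at 17.7, 17.3 and 48.4 CPM with vehicle, and at 105 and 526 with ginkgetin (log2 fold change 3.51, SE 0.76, edgeR adjusted p = 0.275). It passed with the barcode set as a term. Cyp2f2 was at 57.6, 34.6 and 41.6 CPM against 288 and 110, and Pck1 at 270, 261 and 597 against 681 and 1032. Ass1 overlapped, at 983, 2574 and 3075 CPM against 1205 and 2427. Of the 4 midlobular genes all were tested, 0 passed, 1 lay above and 2 below all vehicle libraries. Hamp was at 1997, 1634 and 1651 CPM with vehicle, and at 78.6 and 488 with ginkgetin (log2 fold change -2.53, SE 0.69, edgeR adjusted p = 0.311). Hamp2, a close copy, was at 102, 165 and 371 CPM against 0 and 98.3. Cyp8b1, the sterol 12-alpha-hydroxylase of bile acid synthesis, ran the other way, at 4.43, 19.2 and 17.4 CPM against 52.4 and 60.7, and Igfbp2 overlapped.

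Genes of cholesterol synthesis read higher with ginkgetin. Of 19 genes 11 were tested, 0 passed, and 10 (90.9%) lay above all vehicle libraries, with a median log2 fold change of 2.47. The remaining 8 did not pass the count filter. Idi1, isopentenyl-diphosphate isomerase, was at 39.9, 42.3 and 55.2 CPM with vehicle, and at 314 and 332 with ginkgetin (log2 fold change 2.76, SE 0.33, edgeR adjusted p = 0.162). It passed with the barcode set as a term, as did Hmgcs1, the HMG-CoA synthase of the pathway, at 35.4, 80.7 and 136 CPM against 419 and 538.

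Insig1, a sterol-regulated inhibitor of SREBP processing, was at 26.6, 67.3 and 56.1 CPM against 498 and 144. Msmo1, a demethylating enzyme late in the pathway, was at 4.43, 5.77 and 7.74 CPM against 210 and 52.0. Fdps, farnesyl diphosphate synthase, was at 106, 188 and 391 CPM against 419 and 503. Each of the genes named from this list lay above in both ginkgetin libraries, by a small margin for Fdps.

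Of 13 genes of bile acid synthesis and transport, 12 were tested, 0 passed, and 9 (75.0%) lay above all vehicle libraries, with a median log2 fold change of 1.52. Slco1a1 and Slco1b2 encode uptake transporters for organic anions of the OATP family. Slco1b2 was at 22.1, 23.1 and 57.1 CPM against 314 and 170, and Slco1a1 at 0, 5.77 and 3.87 CPM against 78.6 and 89.6. Cyp27a1, a sterol hydroxylase of bile acid synthesis, was at 31.0, 49.98 and 88.1 CPM against 210 and 116. Cyp7a1 did not pass the count filter.

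Genes of lipid droplets read lower. Of 11 genes 8 were tested, 0 passed, and 5 (62.5%) lay below all vehicle libraries, with a median log2 fold change of -1.71. Plin2, which coats lipid droplets, was at 855, 994 and 1479 CPM with vehicle, and at 183 and 526 with ginkgetin (log2 fold change -1.59, SE 0.52, edgeR adjusted p = 0.332). G0s2, an inhibitor of triglyceride lipase, was at 301, 208 and 199 CPM against 26.2 and 86.7. Cidec and Cidea, which promote the fusion of droplets, had no UMI in either ginkgetin library. Cidec was at 79.7, 55.7 and 87.1 CPM with vehicle, at least 9.50-fold above the level of 3 counts over the ginkgetin group, and Cidea at 17.7, 46.1 and 41.6 CPM, at least 4.50-fold above it. Without ginkgetin replicate 3 neither level exceeded that of 3 counts, with ratios of 0.944 and 0.447.

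Lipogenic genes gave no such shift to lower values. Of 17 genes 10 were tested, 0 passed, 4 (40.0%) lay above and 0 below all vehicle libraries, and the median log2 fold change was 0.25. The share above exceeded that of all genes, 17.1%. Scd1, Fasn and Pparg, which the rule for named genes picked, were not among those 4. Scd1, stearoyl-CoA desaturase, was at 1276, 1720 and 3050 CPM against 1441 and 1656. Fasn, fatty acid synthase, was at 17.7, 73.0 and 181 CPM against 131 and 101.1. Pparg, a nuclear receptor that drives lipid storage, was below the count filter, at 8.86, 21.1 and 36.8 CPM against 0 and 20.2. Of 19 genes of fatty acid oxidation 14 were tested, with 2 (14.3%) above and 1 (7.14%) below. Acaa1b, a peroxisomal thiolase, was at 1705, 2985 and 3005 CPM against 1284 and 1433.

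Apolipoproteins differed among themselves. Of 10 genes 9 were tested and 0 passed, with 1 (11.1%) above and 2 (22.2%) below all vehicle libraries and a median log2 fold change of -0.27. Apoa4, an apolipoprotein of lipid-loaded liver and of the gut, was at 948, 729 and 432 CPM with vehicle, and had 0 and 2 UMIs with ginkgetin. With its 1039 UMIs in vehicle hepatocytes the pooled ratio was 112-fold (vehicle over ginkgetin, 95% counting interval 31.0 to 928, edgeR adjusted p = 0.162). It passed with the barcode set as a term. Apob, the core protein of very-low-density lipoprotein, was at 48.7, 28.8 and 89.0 CPM against 629 and 338. Apoc1 was at 27543, 20061 and 21643 CPM against 19153 and 9580.

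Acute-phase genes went both ways. Of 19 genes 17 were tested, 0 passed, 5 (29.4%) lay below and 2 (11.8%) above all vehicle libraries, and the median log2 fold change was -0.60. The share below was near that of all genes, 19.1%. Saa1, serum amyloid A, was at 1524, 244 and 749 CPM with vehicle, and at 105 and 49.1 with ginkgetin, but its reads may be shared with a close copy. Orm1, orosomucoid, was at 2130, 1769 and 1761 CPM against 1231 and 462. Complement C3 ran against the list, at 159, 23.1 and 232 CPM against 576 and 803. Of 12 genes of injury 7 were tested and 5 (71.4%) lay below. Krt18 and Krt8, the keratins of hepatocytes, were at 930, 481 and 745 CPM against 183 and 266, and at 691, 444 and 688 against 288 and 266. Cdkn1a, a cell cycle inhibitor, was at 173, 152 and 144 CPM against 78.6 and 28.9. Tnfrsf12a, the receptor of TWEAK, had no UMI in the ginkgetin libraries and 44.3, 34.6 and 27.1 CPM with vehicle. That is at least 4.52-fold above the level of 3 counts over the ginkgetin group, a ratio of 0.449 without ginkgetin replicate 3.

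Among the major urinary proteins, 9 of 11 genes were tested, 3 (33.3%) lay above and 0 below. Mup20 was at 31113, 29203 and 21943 CPM against 26096 and 5569, and Mup11 at 75.3, 148 and 16.5 against 1965 and 445, in a family of near-identical genes. Of 14 genes of dissociation stress 11 were tested, with 2 (18.2%) above and 4 (36.4%) below, such as Hsp90aa1 at 368, 238 and 246 CPM against 78.6 and 217. Of 12 antioxidant genes 10 were tested and none lay outside the vehicle range on either side in both libraries, Gstm1 being at 3517, 8139 and 4296 CPM against 3013 and 5473. All 20 identity genes were tested, with 3 (15.0%) above and 2 (10.0%) below and a median log2 fold change of 0.20. Serpina1c was at 3977, 3560 and 3516 CPM against 6367 and 4861.

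Outside the lists, the genes with the lowest p that read higher with ginkgetin included Serpina1e, Cyp26b1 and Cyp2d9. Serpina1e, of the alpha-1-antitrypsin family, was at 841, 388 and 636 CPM with vehicle, and at 6052 and 6066 with ginkgetin (log2 fold change 3.23, SE 0.41, edgeR adjusted p = 0.167). It was a gene of the Ass1 side, with 1114, 469 and 726 CPM there against 12062 and 8809, and 197 CPM or less on the Glul side of each library. Cyp26b1, which degrades retinoic acid, had 2 UMIs in all vehicle hepatocytes and 33 with ginkgetin, a pooled ratio of vehicle over ginkgetin of 0.0131 (95% counting interval 0.00152 to 0.0512). With ginkgetin it was at 199 and 197 CPM on the Glul side, the former from 3 UMIs in 1 cell of replicate 2. In ginkgetin replicate 3 it had 30 UMIs in 9 cells, 21 of these UMIs on the Glul side. Cyp2d9, a male-biased cytochrome P450, was at 57.6, 53.8 and 33.9 CPM against 734 and 266. These 3 passed with the barcode set as a term.

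Those that read lower were, besides Apoa4 and Cidec, Ly6d, Anxa2 and Ifi27l2b. Ly6d, a surface protein anchored in the membrane by a lipid, was at 341, 235 and 252 CPM with vehicle, and had 1 UMI in each ginkgetin library (pooled ratio 49.6-fold, 95% counting interval 13.6 to 410, edgeR adjusted p = 0.255). Anxa2, a calcium-dependent membrane-binding protein, was at 310, 204 and 299 CPM against 52.4 and 23.1. Ifi27l2b had no UMI with ginkgetin and 93.0, 49.98 and 74.5 CPM with vehicle, at least 9.29-fold above the level of 3 counts, a ratio of 0.922 without ginkgetin replicate 3. With the barcode set as a term Apoa4, Cidec, Ly6d and Anxa2 passed and Ifi27l2b did not.

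**Figure D5:**
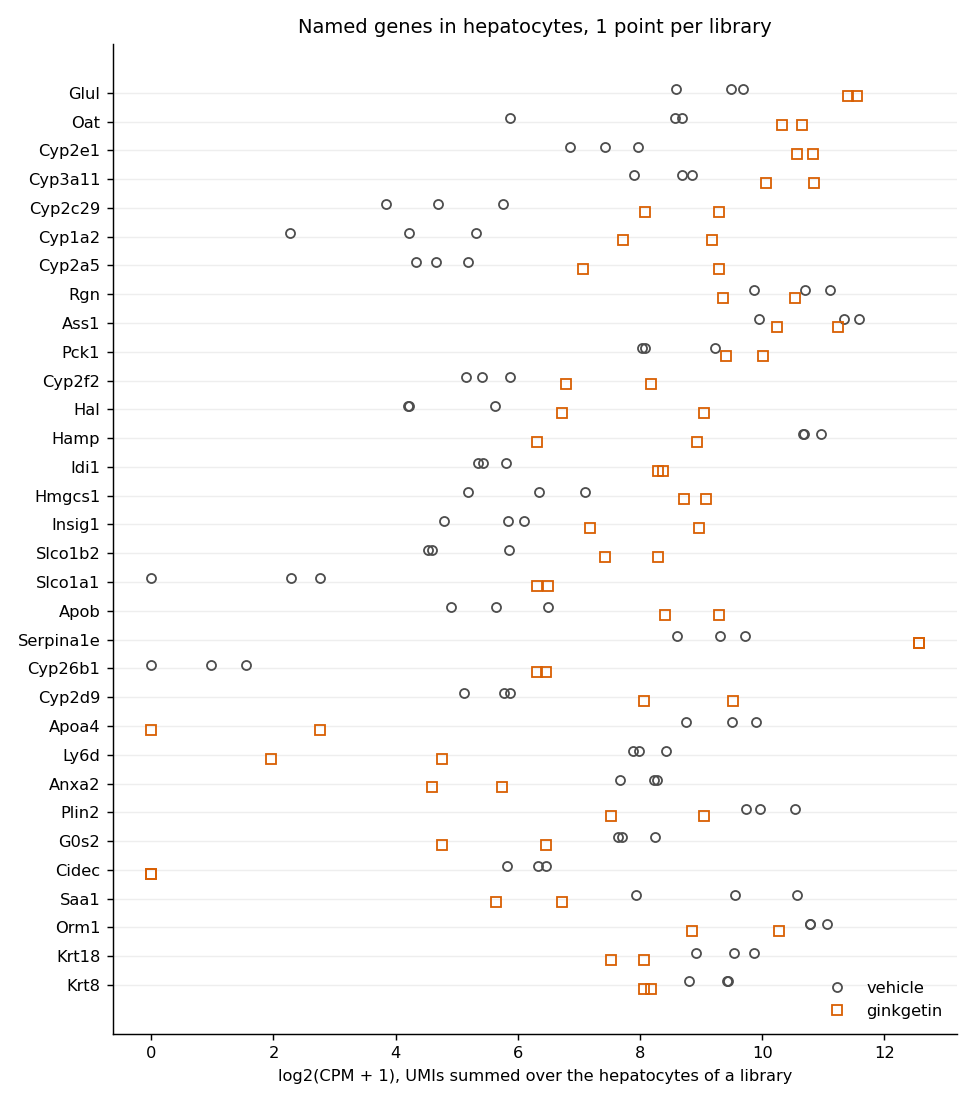
Levels of 32 named genes in hepatocytes, as log2(CPM + 1) of the UMIs summed per library (x axis), with 1 circle per vehicle library (n = 3) and 1 square per ginkgetin library (n = 2). From Glul to Cyp2d9 the squares lie to the right of the circles, except for Rgn, Ass1 and Hamp, and from Apoa4 to Krt8 they lie to the left. The 0 of the axis stands for no UMI.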

How the data were processed

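The authors deposited 1 table of raw UMI counts per gene and barcode for each of the 6 libraries, with no normalization. The study's methods name 10x Genomics, while the labels' extraction text describes a bulk RNA kit, and the tables held cell barcodes and UMIs. Quality control was by Seurat, and the submitters' processing notes name GRCm38. The aligner and annotation are not given in the sources used here. The barcodes held at least 501 genes. No doublet caller was run. Of 19349 symbols, 16150 had UMIs in both barcode sets, 946 only in replicates 1 and 2, and 2253 only in replicate 3. The stated filter of 250 to 5000 UMIs was an alternative (377 hepatocytes of 16821 cells), and the filter on genes per cell was the main one. The members, gene lists and rule for named genes were chosen with earlier results of these data known. Genes were named from the 5 markers, from up to 4 of each list by mean CPM and list genes called under any setting, from Glul, Cyp2e1, Cyp2f2, Fasn and Pparg, and from the 5 of lowest p in each direction at 50 CPM or more in a group and in no other-cell list. Values are given for part of them. Results for some genes are not reported here.

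Counts were summed per library with 10 or more hepatocytes and tested with edgeR 4.0.16 (TMM, filterByExpr, group only) in R 4.3.3, with DESeq2 1.42.0 and limma 3.58.1 as alternatives. The test was checked on simulated counts. Shares were compared by exact permutation in scipy. The labels do not say that replicates were separate mice, so p-values measure the spread between these libraries. In plots and within barcode sets, log2 ratios are of CPM + 1.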

Additional observations from a re-analysis of the deposited data

How the results depend on the processing

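The mean hepatocyte share stayed lower with ginkgetin under each alternative planned, by 0.264 to 2.77 percentage points, with exact permutation p from 0.1 to 1. The smallest difference was that with markers at 10% of UMIs. There the vehicle libraries held 13, 12 and 9 such cells and each ginkgetin library 0, so the groups did not overlap. Within replicate 3 the sign turned at 250 to 5000 UMIs, from -0.414 to 0.350 points, a value added after seeing the data. As the 3 same-numbered pairs, which share only a number, the share gave a difference of -1.39 points (replicate block, exact sign-flip p = 0.25, the smallest it can give). The share of marker-positive barcodes with high mt- UMIs differed by -12.7 to 42.0 points when libraries were left out in turn, and the sign turned without ginkgetin replicate 2. With markers at 10% of UMIs it could not be had, since no ginkgetin library had 10 such barcodes, and for the same reason no gene test or zonation share was made at that limit. The pericentral share differed by 22.9 points. It was 3.48 at 250 to 5000 UMIs, 30.1 with only cells under 1% other-cell UMIs, 11.1 as a mean over cells, 10.7 for Cyp2e1 against Cyp2f2, 29.7 in replicates 1 and 2, and 16.3 in replicate 3. Leaving out libraries gave 15.7 to 30.0 points. The cause was not tested.

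The gene test called 0 genes in the main setting, with RLE factors, limma-voom, either other cell filter, cells under 1% other-cell UMIs and each library left out, 143 with no filter on genes, 58 with DESeq2, 33 with the barcode set as a term, 1 with all libraries that held any member (the cell of ginkgetin replicate 1 included), 127 in replicates 1 and 2 alone, and 6 over genes seen in both barcode sets, an alternative chosen after seeing the data, as were the fold bounds without a library and the Glul side without Malat1-rich cells. With a replicate block it called 28 genes (25 higher and 3 lower), among them 5 endothelial markers. Deviations of the 2 same-numbered pairs correlated at 0.531, too few pairs to tell. Replicate 3 alone has 1 library a group and gave no test. For 50 named genes under these alternatives, 821 of 832 log2 fold changes kept their sign. The alternatives reuse the same libraries, and some genes were named for passing in them or for a low p. This count is therefore no test of stability. Fasn reversed, to -0.17 with no gene filter, -0.30 with the replicate block, -0.20 with the barcode set, -0.37 at 250 to 5000 UMIs, -0.083 with no cell filter, and its range over libraries left out was -0.32 to 1.16, below 0 without vehicle replicate 1 or ginkgetin replicate 2. Ass1 turned to 0.24 at 250 to 5000 UMIs. With libraries left out in turn it ran from -1.07 to 0.057 and Scd1 from -0.76 to 0.047, both above 0 without vehicle replicate 3, and Gstm1 from -1.02 to 0.098, above 0 without vehicle replicate 2.

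The 11 hepatocytes of ginkgetin replicate 2 held 38167 UMIs, 11669 of them in 1 cell. Its values thus rest on few cells, and a gene at 0 there could be at up to 3 counts.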
